A study of Homo sapiens with 15 samples.

Results

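The levels of mature miRNAs in RNA precipitated with an antibody against N6-methyladenosine (m6A) were compared with those in the small RNA before precipitation, called the input. The comparison uses 6 of the 15 libraries of the series, 3 m6A precipitates and 3 inputs, and takes in all 2189 miRNAs listed for them. Of these, 2174 had enough reads to be tested and 15 did not. The untested miRNAs had between 59 and 740 reads in total over the 6 libraries.

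The study asked whether mature miRNAs carry m6A and whether FTO, an enzyme that removes this mark, affects their levels. The libraries come from FTO1C1, FTO2D4 and FTO3C3, which are Flp-In 293 T-Rex derivatives of HEK293, a human embryonic kidney cell line. Each clone gave 1 input, 1 m6A precipitate (anti-m6A antibody of Synaptic Systems) and 1 precipitate with an IgG isotype control antibody (Cell Signaling Technology). For these 9 libraries the study says that HEK293 cells were grown in large amounts and names no siRNA. Their RNA was the fraction of small molecules, in which mature miRNAs lie together with tRNA and small rRNA. A further 6 libraries of the same 3 clones came from cells harvested 48 h after transfection with 10 nM of FTO siRNA or scrambled siRNA. The study describes the clones as uninduced in that experiment. The clones are sublines of 1 cell line, so the spread between them is a spread between clones and experiments and not between donors. HEK293 cells are known for high levels of miRNAs of the HOX clusters and the miR-17-92 cluster. Of these, miR-10a-5p, miR-10b-5p and miR-92a-3p were among the 10 most abundant miRNAs of the input. Other guides of these clusters were lower there. Mean input levels were 2248 RPM (defined below) for miR-196b-5p, 702 for miR-17-5p, 475 for miR-20a-5p and 389 for miR-196a-5p. The most abundant entries, miR-6080 and miR-3168, belong to neither group. Of the markers of other cell types, blood miR-223-3p had a mean of 584 RPM in the input, above miR-20a-5p and miR-196a-5p. Lower means were seen for blood miR-144-3p (35.2) and miR-142-3p (13.4) and for neuronal miR-124-3p (5.97).

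m6A is the most common internal modification of messenger RNA, where methyltransferases place it mainly on the A of a short consensus, and proteins read it or remove it. miRNAs are cut from hairpin precursors by Drosha and Dicer, and each hairpin can give a 5p and a 3p strand. One strand, the guide, is loaded into an Argonaute protein, and its seed (bases 2 to 8) pairs with target messenger RNAs. The other strand, the passenger, is mostly degraded. Drosha processing of primary miRNAs has been linked to m6A on the precursor, and an antibody against m6A can be used to ask which mature strands it retains.

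The sequences below are those on which the comparison turns, with the seed in capitals. They were taken from RefSeq (GRCh38.p14) and can differ in length from the miRBase release 20 entries that the authors counted. The first 5 belong to miRNAs with large increases over the input. The pair of miR-4492 and miR-718 is shown because neither sequence contains an adenosine, which is the base that m6A modifies.
miR-4530: cCCAGCAGgacgggagcg
miR-4298: cUGGGACAggaggaggaggcag
miR-136-5p: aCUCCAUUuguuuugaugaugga
miR-4492: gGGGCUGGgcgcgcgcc
miR-718: cUUCCGCCccgccgggcgucg
The next 4 are large decreases. The sequences of miR-148a-3p and miR-148b-3p share a seed.
miR-6735-3p: aGGCCUGUggcuccucccucag
miR-148a-3p: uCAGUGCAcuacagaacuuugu
miR-148b-3p: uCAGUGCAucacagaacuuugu
miR-27b-3p: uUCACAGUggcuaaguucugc
The last 8 form 4 pairs of relatives with the same seed and the same length, in which the 2 strands differ at 1 base.
let-7a-5p: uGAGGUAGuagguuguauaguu
let-7e-5p: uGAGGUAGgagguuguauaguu
miR-196a-5p: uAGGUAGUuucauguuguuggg
miR-196b-5p: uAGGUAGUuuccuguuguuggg
miR-29a-3p: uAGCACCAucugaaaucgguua
miR-29c-3p: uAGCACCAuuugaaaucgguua
miR-181b-5p: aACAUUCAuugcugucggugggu
miR-181d-5p: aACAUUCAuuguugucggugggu

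In GRCh38.p14, mature miR-4530 lies in MIR4530 at chr19:39409629-39409646, minus strand, miR-4298 in MIR4298 at chr11:1859505-1859526, minus strand, and miR-136-5p in MIR136 at chr14:100884716-100884738, plus strand. The miR-4492 sequence lies in MIR4492 at chr11:118910765-118910781, plus strand, and that of miR-718 in MIR718 at chrX:154019928-154019948, minus strand. Among the decreases, miR-6735-3p lies in MIR6735 at chr1:43448590-43448611, plus strand, miR-148a-3p in MIR148A at chr7:25949922-25949943, minus strand, miR-148b-3p in MIR148B at chr12:54337278-54337299, plus strand, and miR-27b-3p in MIR27B at chr9:95085505-95085525, plus strand. The pair miR-196a-5p and miR-196b-5p comes from different HOX clusters, at chr12:53991762-53991783, plus strand for MIR196A2 (1 of 2 loci) and chr7:27169528-27169549, minus strand for MIR196B.

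The input libraries held 1408702, 1459712 and 1500357 miRNA reads in FTO1C1, FTO2D4 and FTO3C3, and the m6A libraries 569501, 1362780 and 4973238. All values below are given in this order of clones, as reads per 1000000 miRNA reads (RPM), which state a share of the library and not the amount recovered. A single entry, miR-6080, took 15.5 to 28.4% of the input reads, 41.3 to 47.8% of the m6A reads and 58.0 to 71.6% of the IgG reads, so it bears on every RPM. Its count was 563404 in both the m6A and the IgG library of FTO2D4, the only such identity among the 11 miRNAs with at least 200 reads in all 9 libraries. The cause of this identity was not tested, and the counts of higher and lower miRNAs are also given without FTO2D4 and with miR-6080 left out of the totals.

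Most miRNAs took a larger share of the reads after precipitation. Of the 2174 tested, 1452 (66.8%) were higher in the m6A libraries and 229 (10.5%) were lower, at an adjusted p under 0.05 in edgeR's quasi-likelihood test with the clone as a block. Over all tested miRNAs the log2 fold change had a median of 1.65. In 1433 of the higher and 220 of the lower miRNAs all 3 clones moved in the called direction. At least an 8-fold difference was seen for 363 of the higher and 58 of the lower miRNAs. These counts depend on the scale. With TMM factors, which centre the libraries on the bulk of the miRNAs, 575 (26.4%) were higher and 614 (28.2%) lower, and the median was 0.10. The 575 were all among the 1452, the 229 all among the 614, and no miRNA was called higher on one scale and lower on the other. Changes of families are therefore read below against the median of all miRNAs. With miR-6080 left out of the totals, 1601 were higher and 147 lower, with a median of 2.12. Without FTO2D4, 1321 were higher and 180 lower, with a median of 1.77.

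The miRNAs called higher and those called lower were at different levels in the input. The 1452 higher miRNAs had a median of 11.4 RPM in the input and together took 4.89 to 6.18% of the input reads and 25.3 to 29.4% of the m6A reads. The 229 lower miRNAs had a median of 231 RPM in the input, and their share fell from 43.0 to 60.8% of the input reads to 10.9 to 15.4% of the m6A reads. The same held when miRNAs were ordered by their level in the scrambled siRNA libraries, which share no library with the precipitation. Below 10 RPM there, 78.0% of 627 miRNAs were higher in the m6A libraries and the median log2 fold change was 2.07. Between 100 and 1000 RPM, 37.1% of 245 miRNAs were higher and 34.7% lower, with a median of -0.14. Among the 15 miRNAs of at least 10000 RPM, 1 was higher, 10 were lower, and the median was -2.70. Over 2171 miRNAs, which share library and depth, Spearman's rho between this level and the log2 fold change was -0.309. Of the miRNAs of at least 1000 RPM, 16 were called higher and 53 lower, against 10 and 49 without FTO1C1. With TMM factors 7 were called higher and 69 lower. The IgG precipitates had the same order over a wider range. Their median log2 fold change over the input was 1.45 below 10 RPM, -1.85 between 100 and 1000 RPM and -6.79 from 10000 RPM. The 2 precipitates are compared with the same input libraries.

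**Figure D1:**
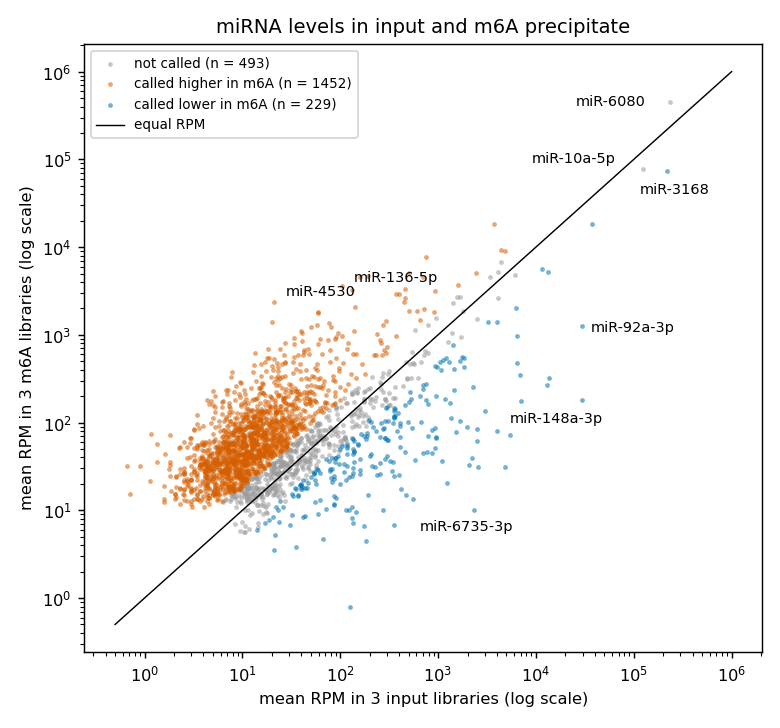
Mean RPM of the 2174 tested miRNAs in the 3 input libraries (x axis, log scale) and the 3 m6A libraries (y axis, log scale), 1 point per miRNA, coloured by the call of edgeR on total miRNA reads. The 1452 miRNAs called higher (orange) lie mostly at low input levels, and the 229 called lower (blue) spread over the medium and high levels.

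The largest increase was that of miR-4530, an entry with 18 bases of which 8 are G. It had 21.3, 20.6 and 22.0 RPM in the inputs, 2852, 1714 and 2577 after m6A precipitation and 134, 117 and 306 with IgG. The log2 fold change over the input was 6.77 (SE 0.51, edgeR adjusted p = 5.32e-11), and 3.80 over IgG. The next was miR-4298, with 16.3, 30.1 and 13.3 RPM in the inputs and 1322, 1263 and 1642 in the m6A libraries. Its IgG libraries held 9.44, 14.0 and 21.4 RPM and overlapped the inputs, and its log2 fold changes were 6.20 over the input (SE 0.51, edgeR adjusted p = 2.10e-10) and 6.65 over IgG. Those IgG values rest on 7, 11 and 4 reads. In both miRNAs the m6A libraries lay above all input and IgG libraries.

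The strand miR-136-5p comes from an imprinted miRNA cluster on chromosome 14. It had 109, 136 and 71.98 RPM in the inputs, 2156, 3441 and 5313 after m6A precipitation and 17.5, 20.3 and 10.7 with IgG. The m6A libraries were above the inputs by a log2 fold change of 5.04 (SE 0.51, edgeR adjusted p = 2.68e-09), whereas the IgG libraries were below them, with -2.69. Its levels in the 3 groups did not overlap. The IgG values rest on 13, 16 and 2 reads.

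Other strands with large increases were as high or higher in the IgG control. The 17 bases of miR-4492 contain no A. Its level was 9.23, 17.8 and 13.3 RPM in the inputs, 636, 507 and 696 after m6A precipitation and 809, 948 and 1196 with IgG, with a log2 fold change over the input of 5.52 (SE 0.49, edgeR adjusted p = 6.15e-10) and -0.68 over IgG. In the same way miR-718, with no A in 21 bases, had 44.7, 87.0 and 45.3 RPM in the inputs, 1928, 1573 and 1848 after m6A precipitation and 2100, 2559 and 3052 with IgG. Every IgG library was above every m6A library for both. The log2 fold change over the input was 4.98 for miR-718, 5.23 for miR-149-3p, 5.44 for miR-4717-5p, 5.16 for miR-4442 and 5.04 for miR-6780b-5p. Over IgG these 5 had -0.52, -0.40, -1.01, -1.02 and 0.15, and of them miR-4717-5p and miR-4442 were called lower than in IgG (edgeR adjusted p = 0.0157 and 0.0153). The remaining 3 of the 12 largest increases among miRNAs with a mean of at least 100 RPM over the 6 libraries, miR-6788-5p, miR-6124 and miR-6743-5p, had log2 fold changes of 5.56, 5.43 and 5.04 over the input and of 4.48, 1.06 and 2.45 over IgG. The comparisons with the input and with IgG share the m6A libraries and are set side by side only.

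At the other end, miR-6735-3p had 2509, 2733 and 1745 RPM in the inputs and 3.51, 11.0 and 15.9 in the m6A libraries. This was the largest decrease of the tested miRNAs, with a log2 fold change of -7.71 (SE 0.58, edgeR adjusted p = 5.32e-11). Its IgG libraries were as low, with 13.5, 12.7 and 32.2 RPM. The guide strand miR-148a-3p, whose known targets include the DNA methyltransferases, was among the 10 most abundant miRNAs of the input with 27880, 39300 and 21700 RPM. After m6A precipitation 159.8, 160 and 223 RPM were left and after IgG precipitation 75.5, 114 and 156, and its log2 fold change from the input to m6A was -7.33 (SE 0.57, edgeR adjusted p = 6.99e-11). Its relative miR-148b-3p, with the same seed, went from 2176, 3202 and 2336 RPM to 24.6, 32.3 and 37.0, a log2 fold change of -6.34. For miR-27b-3p, known from lipid metabolism and angiogenesis, 4493, 6515 and 5109 RPM in the inputs stood against 56.2, 60.9 and 97.9 in the m6A libraries, a log2 fold change of -6.25. None of these 4 strands had an m6A library that overlapped an input library. The other 8 of the 12 largest decreases among miRNAs with a mean of at least 100 RPM over the 6 libraries were miR-4443 (-7.25), miR-301a-3p (-5.93), miR-196b-5p (-5.81), miR-301b (-5.79), miR-30e-3p (-5.71), miR-186-5p (-5.58), miR-1307-5p (-5.52) and miR-25-3p (-5.37, log2 fold changes). Over IgG, miR-27b-3p (1.36), miR-186-5p (1.97), miR-25-3p (2.20) and miR-301b (1.77) of these 12 were called higher (edgeR adjusted p = 0.0226, 0.00148, 0.00118 and 0.0282). The IgG libraries held only 3, 5 and 1 reads of miR-301b. The rest of the 12 were not called against IgG, and miR-30e-3p was not tested there.

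**Figure D2:**
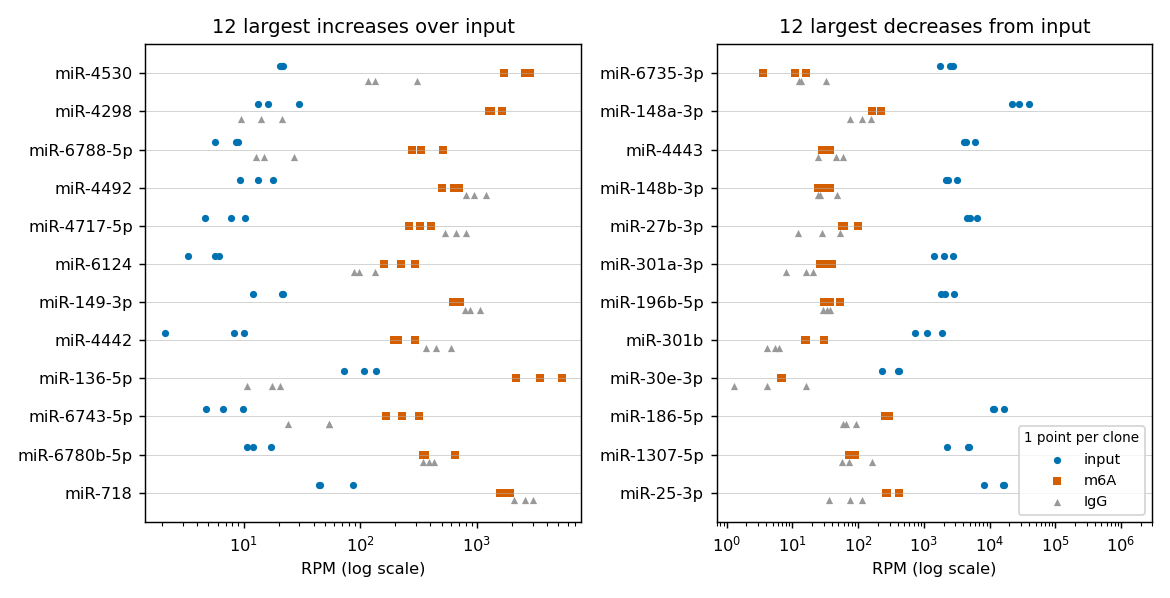
RPM (x axis, log scale) of the 12 miRNAs with the largest increase over the input and the 12 with the largest decrease, among called miRNAs with a mean of at least 100 RPM and the same direction in all 3 clones. Each point is 1 clone (blue circles, input, orange squares, m6A, grey triangles, IgG), and for 5 of the increases, among them miR-4492 and miR-718, every IgG point lies above the m6A mean.

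The 10 most abundant miRNAs of the input differed in their ratio to it. The entry miR-6080 had 283800, 266200 and 155100 RPM in the inputs and 478300, 413400 and 444600 in the m6A libraries, a log2 fold change of 0.97 that did not pass the test (edgeR adjusted p = 0.0604) and turned to -0.58 with TMM factors. The guide miR-10a-5p, encoded in the HOXB cluster, had 96700, 161600 and 118200 RPM in the inputs, 71220, 92990 and 71660 after m6A precipitation and 545, 1614 and 1555 with IgG. Its log2 fold change over the input of -0.65 did not pass the test (edgeR adjusted p = 0.175), but it was called lower with TMM factors (-2.20, edgeR adjusted p = 0.00366). Over IgG it was 6.13. The miRNA miR-22-3p, known as a regulator of growth in heart and tumour cells, fell from 11490, 17700 and 10650 RPM to 5020, 4720 and 5788, with 135, 150 and 150.2 RPM after IgG precipitation. The log2 fold change of miR-22-3p was -1.32 from the input (SE 0.43, edgeR adjusted p = 0.00643) and 5.15 over IgG. The guide miR-92a-3p of the miR-17-92 cluster fell from 20970, 26400 and 41640 RPM to 1573, 1176 and 987, a log2 fold change of -4.54. Over IgG, miR-92a-3p was called higher (1.89, edgeR adjusted p = 0.0018). Thus miR-10a-5p and miR-22-3p took smaller mean shares of the reads than in the input and far larger ones than with IgG. Among the other abundant entries, miR-3168 (-1.42), miR-10b-5p (-1.002) and miR-3150a-5p (-1.08) were also called lower than in the input, although miR-3168 was lower in only 2 of the 3 clones. These 3 and miR-22-3p (-0.86) no longer passed the test when miR-6080 was left out of the totals. All 4 calls were also lost in fits that left out 1 clone. The call of miR-22-3p was lost without FTO2D4 (-1.04), that of miR-3168 without FTO1C1 (-1.28) or FTO3C3 (-0.80), and that of miR-3150a-5p without FTO1C1 (-0.66) or FTO3C3 (-1.01). The call of miR-10b-5p was lost without any 1 of the 3 clones (-0.93 to -1.12). Some of these entries were abundant in the inputs only. Mean levels in the inputs were 235000 RPM for miR-6080, 218000 for miR-3168 and 11470 for miR-3150a-5p. In the scrambled siRNA libraries of the same clones they were 31110, 372 and 40.2. The guide miR-10a-5p had 125500 in the inputs and 274100 there. The cause of these differences was not tested.

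Families were described by their counts, read against 66.8% higher, 10.5% lower and a median of 1.65 (log2 fold change) over the whole table. Counts with TMM factors are read against the 26.4% higher and 28.2% lower of the whole table on that scale. The lists were chosen with results of these data known. Of the 12 strands of the miR-17-92 cluster, which promotes proliferation, 1 was higher and 8 were lower, with a median of -3.84. The guides miR-17-5p (-3.97), miR-18a-5p (-4.65), miR-19b-3p (-4.34) and miR-20a-5p (-5.04) were lower, and the passenger strand miR-92a-1-5p was higher (1.56), a call lost with TMM factors, which gave 0 higher and 11 lower. Of 11 strands of the miR-30 family, 8 were lower and 1, miR-30b-3p (1.16), was higher, with a median of -2.05 (0 higher and 10 lower with TMM factors). Of the 6 strands of the miR-148 and miR-152 family, 3 were lower, namely both strands of miR-148b and miR-148a-3p, whereas miR-148a-5p (2.12) and miR-152-3p (2.37) were higher. Its median was -1.38. With TMM factors both higher calls were lost (0.58 and 0.83), and 0 strands were higher and 4 lower. The guides miR-148a-3p, miR-148b-3p and miR-152-3p share a seed, and in the m6A libraries miR-152-3p had 140.5, 179.8 and 455 RPM against 35.5, 65.1 and 35.3 in the inputs. The 8 strands of miR-130, miR-301 and miR-454 had 1 higher and 5 lower members and a median of -0.99 (0 higher and 7 lower with TMM factors). In the miR-26 and miR-29 families, whose members restrain matrix genes and DNA methyltransferases among others, 4 of 10 were higher and 6 lower, from -4.69 for miR-29c-3p to 4.09 for miR-29b-1-5p, and with TMM factors 1 was higher and 6 were lower. In each of these lists the IgG precipitates were lower still. In the order given, the list medians of IgG over input were -6.11, -6.13, -3.42, -3.62 and -2.24. Those of m6A over IgG were 2.97, 2.53, 1.80, 1.77 and 0.90.

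The let-7 guides, which hold back growth genes such as those of the RAS family, share 1 seed but spread widely. Of the 9, 4 were higher and 1 was lower, and their log2 fold changes had a median of 0.49. The highest was let-7e-5p, with 31.9, 37.0 and 48.0 RPM in the inputs and 341, 492 and 567 in the m6A libraries, a log2 fold change of 3.57 (SE 0.42, edgeR adjusted p = 3.77e-08). The lowest was let-7i-5p, with 136, 254 and 183 RPM in the inputs and 10.5, 21.3 and 12.9 in the m6A libraries, a log2 fold change of -3.70 (SE 0.45, edgeR adjusted p = 5.02e-08). All clones of let-7e-5p thus lay above, and all clones of let-7i-5p below, their inputs. Between them were let-7d-5p (3.30), let-7c-5p (1.30), let-7a-5p (1.02), let-7b-5p (0.49), let-7f-5p (0.41), let-7g-5p (0.11) and miR-98-5p (-0.86), of which the first 3 were called higher. With TMM factors 2 of the 9 were higher and 5 lower, and let-7b-5p turned to a lower call (-1.07). The guides had a median of -4.06 for IgG over input and of 4.08 for m6A over IgG. Of the 7 let-7 passenger strands tested, 4 were higher and 2 lower (2 and 2 with TMM factors), from -3.83 for let-7a-3p to 3.35 for let-7d-3p.

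In some lists higher members took a larger share than the 66.8% of all tested miRNAs. All 8 strands of the miR-1273 family were higher, from 0.89 for miR-1273a to 4.30 for miR-1273c, with a median of 2.25. With TMM factors 4 of the 8 were higher and 0 lower. In the group of the miR-320 family and miR-484, hairpins that can be made without Drosha, 3 of 4 were higher. In so small a group this is not clearly apart from 66.8%. With TMM factors 2 of the 4 were higher and 1 was lower. The strand miR-320a had 25.6, 27.4 and 29.3 RPM in the inputs, 509, 1225 and 682 after m6A precipitation and 4.05, 11.4 and 5.36 with IgG, a log2 fold change over the input of 4.78 (SE 0.47, edgeR adjusted p = 1.91e-09). The m6A libraries of miR-320a did not overlap the other groups, but its IgG values rest on few reads. Its close relative miR-320d, with which it can share reads, had 5.40, and miR-484 was lower, with -1.65. The block of entries from miR-6715 to miR-6895 had 149 of 167 5p arms higher and 4 lower (median 2.49), and 78 higher and 13 lower with TMM factors. Other lists were near or below the share of all tested miRNAs. With TMM factors 26.4% of all tested miRNAs were higher and 28.2% lower, so the counts of these lists on that scale are read against those shares. Of the 127 tested 3p arms of the same block 74 were higher and 16 lower (median 1.28), which turned to 33 and 43 with TMM factors. Of 10 strands of the miR-378 family, 7 were higher and 0 were lower, with a median of 1.52, but 2 were higher and 3 lower with TMM factors. Of the 731 tested entries among let-7 and the miRNAs numbered up to miR-999, which were annotated first, 375 were higher and 143 lower (median 0.98), which turned to 133 and 318 with TMM factors. Among 23 entries that resemble snRNA, tRNA or rRNA, 15 were higher and 3 lower (median 1.61), against 6 and 7 with TMM factors. These counts were near the shares of all tested miRNAs on the same scale. The tRNA-like miR-4454 was lower (-2.10) and the rRNA-like miR-6087 higher (4.72). Of 9 markers of other cell types, such as muscle miR-1 (2.02) and erythroid miR-451a (1.67), 6 were higher and 1 lower, against 0 and 2 with TMM factors. Of 6 markers of HEK293 cells 0 were higher and 5 lower, against 0 and 6. The HEK293 markers had medians of -6.83 for IgG over input and 4.75 for m6A over IgG.

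The remaining lists held both higher and lower strands. Their counts of higher and lower strands were 3 and 4 of 10 for the miR-106b-25 and miR-106a-363 clusters, 2 and 6 of 14 for the miR-15 and miR-16 family, and 1 and 4 of 8 for miR-10 and miR-196. They were 4 and 1 of 10 for miR-99, miR-100 and miR-125, 2 and 2 of 4 for miR-103 and miR-107, and 7 and 2 of 11 for the clusters of miR-23, miR-24 and miR-27. For miR-181 they were 4 and 2 of 9, for the cluster in CLCN5 8 and 1 of 11, and for miR-28, miR-151 and miR-708 2 and 2 of 6. For miR-374 and miR-421 they were 2 and 2 of 5, and for miR-548 10 and 8 of 35. The medians of these 11 lists ran from -0.83 for miR-10 and miR-196 to 1.85 for miR-23, miR-24 and miR-27. With TMM factors lower strands outnumbered higher ones in each of the 11. Over all tested miRNAs on that scale 26.4% were higher and 28.2% lower, so lower calls were also the more frequent there. Examples were 2 higher and 4 lower for miR-23, miR-24 and miR-27, and 2 and 3 of 11 for the cluster in CLCN5. Others were 1 and 5 for miR-181, and 1 and 6 for miR-99, miR-100 and miR-125. In lists of this size, counts such as 2 and 3 of 11 are not clearly apart from the whole table.

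**Figure D3:**
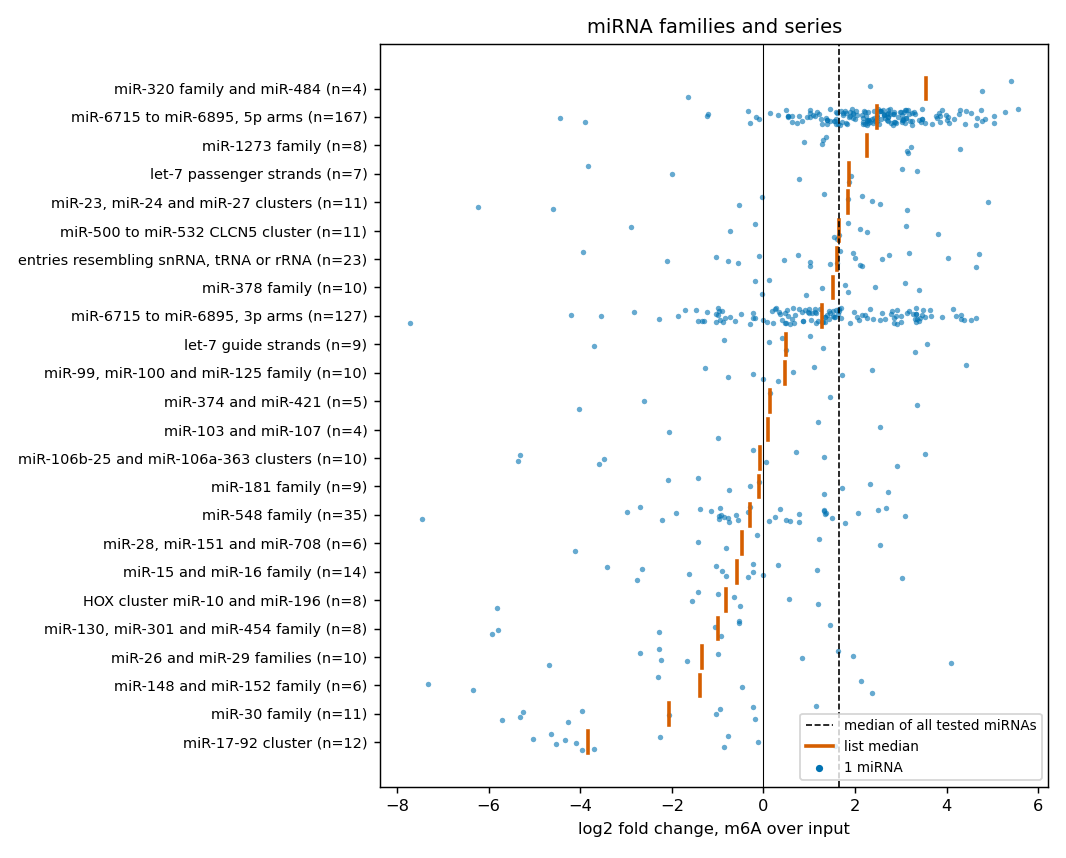
Log2 fold change of m6A over input (x axis) for the tested strands of each family or series (1 row each, n in the row name). Each point is 1 miRNA, orange bars are list medians, and the dashed line is the median of all tested miRNAs at 1.65. The miR-17-92 cluster and the miR-30 family have the lowest medians (-3.84 and -2.05), and the let-7 guides run from -3.70 to 3.57.

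The 2 arms of a hairpin did not always move together. Both arms were tested for 587 hairpins, of which 235 had both arms higher and 19 both lower. In 44 hairpins the 5p arm was higher and the 3p arm lower, and in 31 the 5p arm was lower and the 3p arm higher. With TMM factors these 4 counts turned to 31, 66, 63 and 26. The median absolute difference between the arms was 1.60 on the log2 scale. Over all tested miRNAs 66.8% were higher and 10.5% lower, and 26.4% and 28.2% with TMM factors. The 25th and 75th percentiles of their log2 fold changes on total reads were 0.38 and 2.62. Pairs of unrelated miRNAs were not compared, so these values do not show whether arms of a hairpin differ more or less than other miRNAs. In the miR-27b hairpin, the 5p strand had 9.23, 7.54 and 9.33 RPM in the inputs and 283, 239 and 264 in the m6A libraries, a log2 fold change of 4.90 (SE 0.47, edgeR adjusted p = 1.74e-09), against -6.25 for miR-27b-3p. In the miR-148a hairpin, miR-148a-5p had 197, 240.5 and 269 RPM in the inputs and 1126, 933 and 1000 in the m6A libraries, a log2 fold change of 2.12 against -7.33 for miR-148a-3p. In both hairpins the abundant 3p guide was lower and the rarer 5p strand higher, but with TMM factors miR-148a-5p was not called (0.58).

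Relatives that differ at 1 base also differed in their ratio to the input. There were 7 such pairs with the same seed and length and a mean of at least 100 RPM, and they were looked up after the data had been seen. Positions count from 1 at the 5′ end, with the base of the first-named miRNA first. The widest mean gap was between miR-196a-5p and miR-196b-5p, which differ by A12C. In the inputs miR-196a-5p had 262, 572 and 332 RPM and in the m6A libraries 87.8, 163 and 137, while miR-196b-5p had 1803, 2853 and 2090 in the inputs and 29.9, 37.4 and 52.5 in the m6A libraries. The log2 ratio of the first exceeded that of the second by 4.31, 4.43 and 4.04 in the 3 clones (SD 0.20). For miR-29a-3p and miR-29c-3p (C10U) the difference was 5.29, 2.80 and 2.05 (SD 1.70). For miR-181b-5p and miR-181d-5p (C12U) it was 2.10, 1.94 and 1.87 (SD 0.12). For let-7a-5p and let-7e-5p (U9G) it was -2.35, -3.08 and -2.19 (SD 0.48). The differences were smaller for miR-30a-5p and miR-30e-5p (C13U), with 1.06 between the fitted log2 fold changes, for miR-19a-3p and miR-19b-3p (U11C), with 0.63, and for let-7a-5p and let-7f-5p (G12A), with 0.61. In all 7 pairs the 3 clones had the same sign. With 3 clones an exact two-sided permutation test of the signs cannot go below p = 0.25. Reads with a sequencing error can be assigned to the other member of such a pair, which makes these values uncertain.

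**Figure D4:**
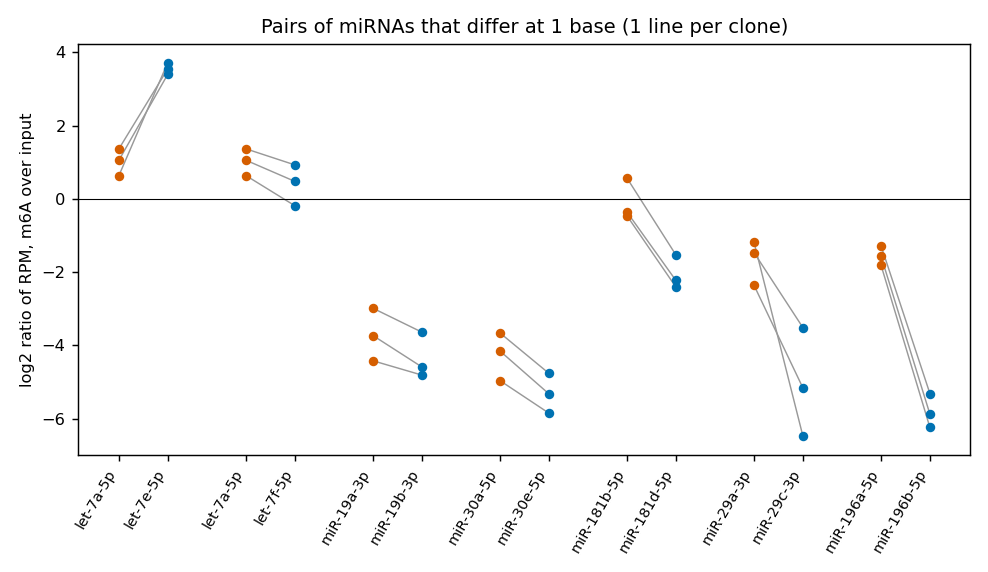
Log2 ratio of RPM in m6A over input (y axis) for 7 pairs of miRNAs that differ at 1 base, with the first member in orange, the second in blue and 1 line per clone. The lines of miR-196a-5p and miR-196b-5p fall by 4.04 to 4.43 in all 3 clones.

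The sequences were then compared with the calls for the 1910 of 2174 tested miRNAs found in RefSeq. The core of the m6A consensus of messenger RNA, AAC or GAC on the miRNA strand, was present in 39.1% of all 1910, in 42.1% of those called higher and in 28.4% of those called lower. The longer consensus (A or G, then AAC or GAC, then A, C or U) overlaps the core and was present in 22.9% of all, 25.5% of the higher and 14.4% of the lower miRNAs. The match is a property of the letters and does not show a modified site. The number of adenosines had a median of 5 in all 3 sets. The G content, looked at after the data had been seen, had a median of 27.3% in all, 31.8% in the higher and 22.7% in the lower miRNAs. With the miRNAs split by G content into 4 groups of 477 or 478, 52.5% were higher in the lowest group and 84.9% in the highest. Between these 2 groups the median log2 fold change of IgG over input also rose, from 0.046 to 1.35. That of m6A over IgG was 0.63 in the lowest and 0.91 in the highest. Over 1910 miRNAs Spearman's rho of the log2 fold change over the input was 0.344 with the G content and 0.0171 with the number of adenosines. The corresponding values with the G content were 0.1075 for m6A over IgG (1803 miRNAs) and 0.219 for IgG over input (1710 miRNAs). With the number of adenosines they were 0.337 for m6A over IgG and -0.211 for IgG over input. These comparisons share libraries, and the miRNAs share libraries and base composition.

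A direct view of the same pattern was given by grouping miRNAs by their number of adenosines. The median log2 fold change of m6A over input stayed between 1.42 and 2.31 in all 9 groups. That of m6A over IgG went from -0.28 in the 29 miRNAs without A to 1.64 in the 249 with at least 8, and that of IgG over input from 2.10 to -0.26. Of all 2054 miRNAs tested against IgG, 38.6% were called higher in m6A, and this share was 11.1% in the group without A and 60.9% in the group with at least 8. The 29 miRNAs without A cannot carry m6A within the listed sequence. Nevertheless 22 of them were called higher than the input and 4 lower, and the share of 75.9% stands beside the 66.8% of all tested miRNAs. With TMM factors 12 were higher and 7 lower. Without FTO2D4, 21 were higher and 2 lower. Beside miR-4492 and miR-718, miR-4507 had 4.97, 6.85 and 5.33 RPM in the inputs, 84.3, 110.1 and 121 after m6A precipitation and 97.1, 86.4 and 129 with IgG. Here the m6A and IgG libraries overlapped and both lay above the inputs. Over IgG, 3 of the miRNAs without A were called higher. One was miR-3944-3p, with 14.9, 32.2 and 17.3 RPM in the inputs, 172, 190.1 and 179 after m6A precipitation and 49.9, 39.4 and 80.5 with IgG, which was called higher over both (log2 fold change 3.13 over the input and 1.76 over IgG). The others were miR-3940-5p, also higher over the input (2.22) and over IgG (2.73, edgeR adjusted p = 0.00543), and miR-4483, which was lower than the input (-1.47) but higher over IgG (2.03, edgeR adjusted p = 0.0229). These 29 were picked out after the data had been seen.

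**Figure D5:**
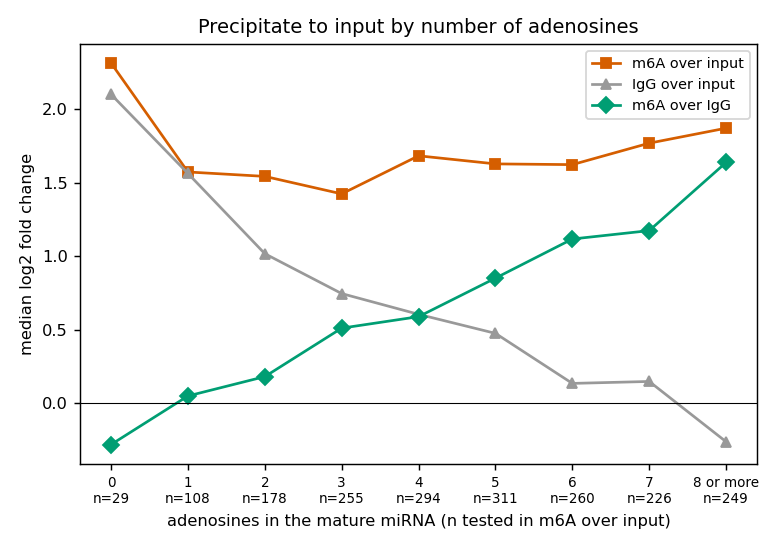
Median log2 fold change (y axis) of m6A over input (orange), IgG over input (grey) and m6A over IgG (green) for miRNAs grouped by the number of adenosines in the mature sequence (x axis). The orange line stays between 1.42 and 2.31, while the green line goes from -0.28 to 1.64 and the grey line from 2.10 to -0.26.

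The study lists 17 miRNAs as most strongly precipitated relative to IgG, a choice made on the same m6A libraries, so their direction here is not independent evidence. All 17 were also higher than the input, against 66.8% of all tested miRNAs, with a median log2 fold change of 3.36, and 12 remained higher with TMM factors. They differed widely in their ratio to the input. The strand miR-1910-3p had 157, 232 and 184 RPM in the inputs, 4734, 4370 and 4767 after m6A precipitation and 16.2, 31.8 and 21.4 with IgG, with log2 fold changes of 4.62 over the input and 7.64 over IgG. The strand miR-103a-3p, a regulator of insulin signalling and Dicer, had 1447, 1849 and 1544 RPM in the inputs, 3902, 3381 and 3756 after m6A precipitation and 5.39, 15.2 and 10.7 with IgG, with 1.20 over the input and 8.47 over IgG. The IgG library of FTO3C3 held only 186446 reads, so its values for miR-1910-3p and miR-103a-3p rest on few reads. The smallest increase over the input among the 17 was that of miR-378a-3p (0.92, SE 0.42, edgeR adjusted p = 0.0473). With TMM factors miR-103a-3p (-0.35) and miR-378a-3p (-0.62) changed sign and were not called.

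Of the miRNAs discussed in the study, let-7e-5p was described above. The passenger miR-125b-1-3p had 4.26, 6.85 and 2.00 RPM in the inputs and 472, 49.2 and 19.1 in the m6A libraries, a log2 fold change of 4.43 (SE 0.65, edgeR adjusted p = 9.34e-07). All clones were above their input, but FTO1C1 was far above the others. The passenger miR-125b-2-3p had 134, 158 and 143 RPM in the inputs and 176, 133 and 125 in the m6A libraries, and the guide miR-125b-5p 2.84, 6.85 and 15.3 and 3.51, 7.34 and 10.2. Their groups overlapped, and neither passed the test, with log2 fold changes of -0.020 and -0.23. Growth regulators miR-7-5p (0.44, edgeR adjusted p = 0.289) and let-7b-5p (0.49, edgeR adjusted p = 0.251) did not pass it either. With TMM factors all 4 were called lower, with -1.57 for miR-125b-2-3p, -1.88 for miR-125b-5p, -1.11 for miR-7-5p and -1.07 for let-7b-5p (edgeR adjusted p = 0.00254, 0.00726, 0.018 and 0.0153). Over IgG, miR-125b-1-3p (2.535), miR-125b-2-3p (3.17) and let-7b-5p (2.71) were called higher (edgeR adjusted p = 0.0177, 0.00343 and 0.00396). The IgG libraries held only 7, 6 and 10 reads of miR-125b-2-3p and 3, 3 and 1 of let-7b-5p. Not called over IgG was miR-7-5p (-0.19), and miR-125b-5p was not tested against it.

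The knockdown of FTO gave values for 2155 of the tested miRNAs from libraries that the precipitation does not share. Over all 2374 miRNAs tested there, 4.97% were higher and 0.505% lower after FTO siRNA than after scrambled siRNA. Of the miRNAs higher in the m6A libraries, 61 of 1442 were higher and 3 lower after the knockdown, with a median log2 fold change of 0.31. Of those lower in the m6A libraries, 20 of 226 were higher and 8 lower, with a median of 0.15. Over all 2155, 116 were higher and 12 lower, with a median of 0.29. These directions depend on the scale. With TMM factors in the knockdown, 12 were higher and 12 lower among the miRNAs higher in the m6A libraries, 2 and 15 among those lower there, and 20 and 34 over all 2155. The medians were then 0.017, -0.14 and -0.0031. Across the 2155 miRNAs, Pearson's r between the log2 fold changes of precipitation and knockdown was 0.131 and Spearman's rho 0.105, as a description over miRNAs of the same libraries. The 8 miRNAs lower in both comparisons on total reads were miR-22-3p (-1.82 after the knockdown, edgeR adjusted p = 1.38e-04), miR-196a-5p (-1.54), miR-769-5p (-1.05), miR-27b-3p (-0.83), miR-1180-3p (-0.67), miR-28-3p (-0.62), miR-25-3p (-0.61) and miR-16-5p (-0.49). Of these, miR-22-3p and miR-25-3p were among the 10 most abundant of the input.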

How the data were processed

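Small RNA of the clones FTO1C1, FTO2D4 and FTO3C3 was sequenced as input, m6A precipitate and IgG precipitate. Adapters were removed by the authors with cutadapt at an overlap of 4 bp and an error rate of 20%. Trimmed reads between 16 and 28 bp were assigned to mature miRNAs of miRBase release 20 through runs of 7 or more exactly matching bases that together cover 17 or more bases. They deposited the read counts per mature miRNA without normalization, and entries of identical sequence were joined. The labels give no separate step for duplicates, and since the reads carry no molecular identifiers, depth limits counting error only.

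From these counts, RPM of all miRNA reads were computed. Differences were tested with the quasi-likelihood test of edgeR 4.0.16 (R 4.3.3, limma 3.58.1) on the 6 input and m6A libraries, with total miRNA reads as library sizes, filterByExpr at a minimum count of 10, the clone as a block and Benjamini-Hochberg adjustment over all tested miRNAs at 0.05. The same fit was made for m6A against IgG, IgG against input and FTO siRNA against scrambled siRNA. Clone-wise log2 ratios used 0.5 reads as a pseudocount. The script was tested on simulated counts. Tables came from Python 3.11.15 with pandas 2.3.3, and figures from matplotlib 3.10.9.

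Libraries with the same clone name come from the same clone and were therefore paired. As a check, the deviation of each m6A library from the mean of its group was set against that of its input, with correlations of -0.0284, -0.0667 and -0.0711. These values show no deviation shared by the m6A library and the input of a clone, so the pairing rests on the clone names. The log2 ratios of the clones correlated with Pearson's r between 0.840 and 0.878 over 2174 miRNAs.

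The named miRNAs are the 12 largest increases and 12 largest decreases with an adjusted p under 0.05, the same direction in all 3 clones and a mean of at least 100 RPM over the 6 libraries, the 10 most abundant miRNAs of the input and the miRNAs the study discusses. Further strands are examples of the lists. The miRNAs, lists and comparisons were chosen with earlier results of these data known. The alternatives were TMM factors, DESeq2 1.42.0, totals without miR-6080, no filter, a filter of 15 RPM, no block, all 9 libraries in 1 fit, and each clone left out. The same alternatives for the miRNAs without adenosine, for the abundant miRNAs and for the 17 miRNAs of the study were added after the data had been seen. Of the 2189 listed miRNAs, 1923 matched a RefSeq sequence by name.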

Additional observations from a re-analysis of the deposited data

Results flagged for a closer look

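The miRNA miR-136-5p moved in opposite directions in the 2 precipitates. Relative to the input, its log2 fold change was 5.04 with the anti-m6A antibody and -2.69 with IgG, and the direct comparison of m6A with IgG gave 7.51 (edgeR adjusted p = 3.79e-06). All 3 clones showed both directions, and the IgG libraries held 13, 16 and 2 reads of this strand. Opposite directions were not particular to miR-136-5p. The 17 miRNAs that the study lists, which include it, had median log2 fold changes over the input of 3.36 with m6A and -3.49 with IgG. For miR-215-5p these values were 4.85 and -1.45. The comparisons share the input and m6A libraries, and the cause was not tested.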

How the results depend on the processing

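The counts depended mainly on the scale. Instead of 1452 higher and 229 lower miRNAs and a median of 1.65 on the log2 scale, the TMM factors gave 575, 614 and 0.10, DESeq2 gave 491, 595 and 0.085, and totals without miR-6080 gave 1601, 147 and 2.12 (the first and the last of these within 1.5 times). The fit without the replicate block gave 1479 higher and 249 lower with a median of 1.67, and the other fits also stayed within 1.5 times. With each clone left out in turn, 1284 to 1430 were higher and 180 to 221 lower, with medians of 1.43 to 1.77. Over 37 named miRNAs and 10 alternatives, 335 of 368 values kept direction and side of the threshold, 12 lost and 11 gained the call, and 10 changed sign. With TMM factors and DESeq2 the sign changed for miR-6080 (-0.58 and -0.60), let-7b-5p (-1.07 and -1.08) and miR-7-5p (-1.11 and -1.15). Without miR-6080 in the totals it changed for miR-125b-2-3p (0.44) and miR-125b-5p (0.27), and for miR-125b-2-3p it ranged from -0.22 to 0.10 with each clone left out. The replicate block changed the call of 1 named miRNA, miR-6080, which was called higher without it (0.92). The cause of these changes was not tested. The median of the let-7 passenger strands minus that of all miRNAs went from 0.22 to -0.37 without FTO1C1. RPM give shares, so neither scale shows how much of a miRNA was recovered. The IgG library of FTO3C3 was the shallowest, with 186446 reads.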
